A study of Homo sapiens with 2 samples.

Results

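The probe sets described here are the 2086 of 45033 on a human expression array, 4.63% of the array, for which the deposited annotation gives no gene ID. They were taken by their annotation alone, without use of any measured value, and the row of random control probes was left out. All 2086 were read with 3 probes each. The remaining 42947 probe sets carry a gene ID.

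Total RNA came from HCT15, an established human colorectal cancer cell line. One sample carried a stable LYAR-shRNA and the other a stable Scramble-shRNA, a non-silencing hairpin, with 1 array for each. Both hairpins were expressed from pLentiLox 3.7 in lentivirus made in 293T cells, and the stably infected cells of each sample were collected by a GFP sort. The labels mention 2 LYAR siRNA sequences and do not say in words which hairpin this sample carried. LYAR is a nucleolar zinc finger protein. Its intensity was 1036 with LYAR-shRNA and 1925 with Scramble-shRNA, a log2 difference of -0.89, and that of FSCN1, the actin-bundling protein fascin, was 241 and 733 (-1.61). Intensity is the RMA summary of a probe set on a linear scale, and every difference below is the log2 intensity of the LYAR-shRNA array minus that of the Scramble-shRNA array. Keratin 8, a filament protein of simple epithelia, was at 41613 and 41639, and 8 and 7 of the 9 colon epithelium markers on the array had a probe set that exceeded the level set by random probes on the respective arrays. KRT20 (43.9 and 53.7) was under it on both arrays, and EPCAM matched no symbol. With 1 array per group there is no replicate error and no test, and each difference compares these 2 arrays only.

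Most records without a gene ID are cDNA clones from large sequencing projects. Such clones often come from introns, from untranslated ends or from unspliced transcripts of a known gene, and others lie where no gene had been placed when the array was designed. Some come from loci where a single gene ID is hard to assign. Immunoglobulin genes are one case, because B cells join variable and constant segments that lie far apart in the germline, so that an antibody cDNA maps to a long span over many segment genes.

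Of the 2086 titles, 1148 were FLJ cDNA clones, 352 were clones of the MGC or IMAGE collections, 58 were DKFZ clones, 54 were other full-length clones and 31 were patent sequences. Another 384 were other mRNA records, 40 were titled as open reading frames or hypothetical proteins, and 13 had immunoglobulin words. No title named an endogenous retrovirus. RefSeq-style accessions were given for 40, and 1 of these, NM_001001935, matched the current RefSeq table, as ATP5F1A, the alpha subunit of mitochondrial ATP synthase. The files hold no probe sequences. The promoters below belong to genes tied to 3 members described later. NM_001001935 is a transcript of ATP5F1A, NM_001039694 is titled PPARD, a lipid-sensing nuclear receptor, and AF132203 lies inside SCD, the stearoyl-CoA desaturase that makes monounsaturated fatty acids. Sequences are from RefSeq, build GRCh38.p14, read 5′ to 3′ on the gene's strand from 250 bases before to 50 bases after an annotated start. Capitals mark the GC box, GGGCGG or its reverse complement CCGCCC.
SCD, chr10:100346983-100347282, plus strand: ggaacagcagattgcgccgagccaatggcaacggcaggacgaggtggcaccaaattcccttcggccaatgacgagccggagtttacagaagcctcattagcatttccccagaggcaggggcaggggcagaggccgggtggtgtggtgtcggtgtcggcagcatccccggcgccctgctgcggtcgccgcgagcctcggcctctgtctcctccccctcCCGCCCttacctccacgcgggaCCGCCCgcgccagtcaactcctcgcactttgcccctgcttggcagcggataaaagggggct
PPARD, chr6:35342308-35342607, plus strand: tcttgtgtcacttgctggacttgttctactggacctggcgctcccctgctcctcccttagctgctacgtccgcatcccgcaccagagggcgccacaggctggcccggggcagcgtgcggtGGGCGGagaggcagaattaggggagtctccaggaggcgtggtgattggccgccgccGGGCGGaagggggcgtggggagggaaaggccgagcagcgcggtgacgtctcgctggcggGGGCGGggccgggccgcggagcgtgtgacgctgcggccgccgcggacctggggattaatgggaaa
ATP5F1A, chr18:46098247-46098546, minus strand: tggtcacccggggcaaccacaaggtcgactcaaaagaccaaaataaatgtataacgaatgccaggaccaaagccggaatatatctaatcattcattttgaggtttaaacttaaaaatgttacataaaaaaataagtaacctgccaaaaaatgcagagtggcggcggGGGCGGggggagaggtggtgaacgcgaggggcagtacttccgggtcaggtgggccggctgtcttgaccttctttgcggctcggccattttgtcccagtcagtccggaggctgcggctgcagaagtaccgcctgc
ATP5F1A, chr18:46104178-46104477, minus strand: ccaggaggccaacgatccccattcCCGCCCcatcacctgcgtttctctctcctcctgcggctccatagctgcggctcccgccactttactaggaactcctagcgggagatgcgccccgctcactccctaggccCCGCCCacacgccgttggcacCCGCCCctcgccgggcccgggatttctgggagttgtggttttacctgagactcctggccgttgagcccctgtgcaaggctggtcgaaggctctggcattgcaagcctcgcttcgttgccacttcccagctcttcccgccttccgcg
The SCD window held 2 GC boxes and 25 CpG pairs, the PPARD window 3 and 31, and the ATP5F1A windows 1 and 16 and 3 and 23. The box occurs on either strand in 45.0% of the 35116 promoter windows of the same length, whose median CpG count was 14. A match describes these letters only.

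Probe sets without a gene ID were dim. Their median intensity was 56.3 with LYAR-shRNA (quartiles 33.0 and 161.0) and 59.2 with Scramble-shRNA (quartiles 33.9 and 177.4). For probe sets with a gene ID the medians were 128.5 and 122.0. The 5000 random probes averaged 30.3 and 32.7, and 2 times that level, 60.7 and 65.4, was taken as the bound above which a probe set is called measured. By this bound 47.4% and 46.4% of the probe sets without a gene ID were measured, against 63.8% and 62.1% of those with one. Both arrays measured 815 of the 2086, and neither measured 945. The share differed by kind of record: it was 45.0% and 43.3% among FLJ clones, 53.7% and 55.1% among MGC or IMAGE clones, and 70.4% and 68.5% among other full-length clones. The plot of the 2 arrays shows this dim mass below and around the bound.

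**Figure D1:**
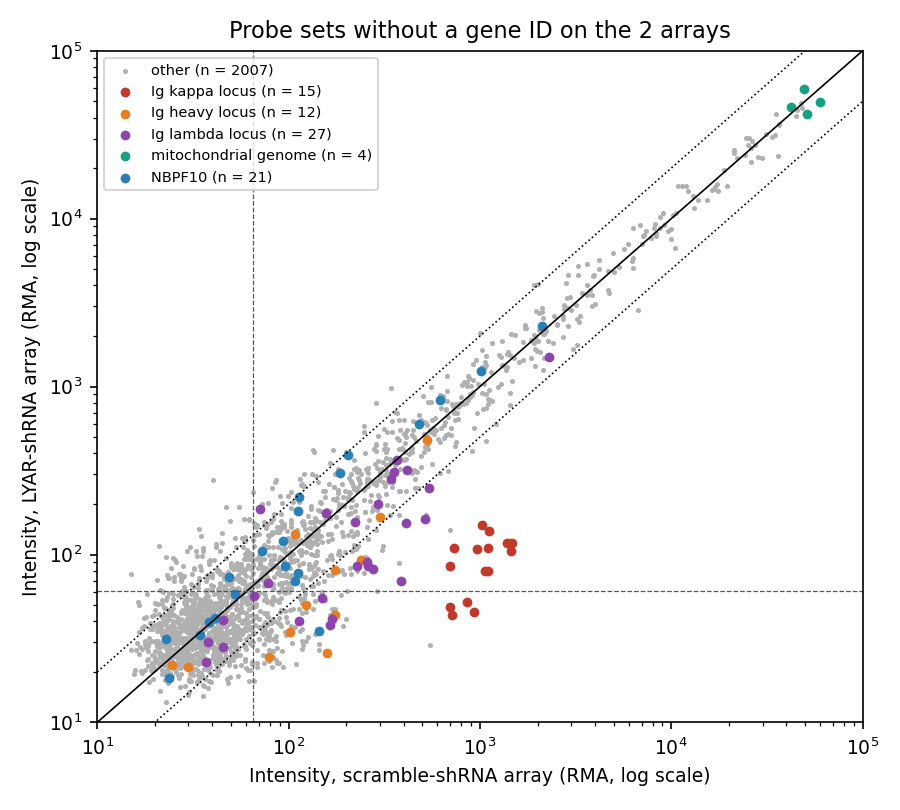
Intensity of each of the 2086 probe sets without a gene ID on the Scramble-shRNA array (horizontal, log scale) and the LYAR-shRNA array (vertical, log scale). The solid line is equality, dotted lines are 2-fold, and dashed lines are 2 times the random probe intensity (65.4 and 60.7). All 15 immunoglobulin kappa members lie below the lower dotted line.

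The brightest members differed little between the arrays. 4 of the 8 brightest lie on the mitochondrial genome, which encodes subunits of the respiratory chain and ATP synthase. BX647504 had intensities of 49734 with LYAR-shRNA and 60044 with Scramble-shRNA (-0.27), AK057071 had 58797 and 49425 (0.25), AF271776 had 41962 and 51171 (-0.29), and AK097322 had 45957 and 42477 (0.11). These form pairs on overlapping spans, BX647504 with AK097322 and AK057071 with AF271776, and within each pair the 2 signs were opposite. AF267861, titled as an EF1a-like protein and overlapping the translation elongation factor gene EEF1A1, had 44128 and 45609 (-0.05). The other 3 were AF322220 at 48711 and 47903 (0.02), BC000228 at 45552 and 48491 (-0.09) and AK130930 at 40646 and 44834 (-0.14). AK130930 lies inside CDC27, whose 2 probe sets were far dimmer, at 447 and 420 and at 83.8 and 115. BC000228 overlaps TLE1, whose probe set was at 1552 and 1262. Which transcripts these 3 members read was not tested. NM_001001935, the ATP5F1A record, was at 25703 and 21281 (0.27), and was named for its match rather than for its level. Members overlapping HLA class I genes, also named after their values were seen, included AK130148 at 35923 and 36750 (-0.03) and AK026595 at 42147 and 35232 (0.26). HLA genes are close relatives of each other, so these probe sets may read more than 1 of them.

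A difference was counted where it reached 2-fold and the brighter array was at 113.7 or more, the median level of all probe sets. Of the 2086, 764 passed this level filter. Among them 55 were higher with LYAR-shRNA and 97 were lower. The background over all 24527 probe sets that passed was 6.67% higher, 5.16% lower and 11.8% in either direction, and the members' shares were 7.20% higher and 12.7% lower. The median difference was -0.00 over the 764 and 0.05 over all 24527. The 4 nearest 2-fold on the higher side were at 1.01 to 1.03 with 0.98 to 1.00 just under it. On the lower side the values were -1.03 to -1.02 past it and -0.998 to -0.932 just under it. Members share loci: the 55 higher probe sets fell into 54 separate spans and the 97 lower into 69, out of 1918 separate spans for the 2086.

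Of the 97 lower probe sets, 31 overlapped immunoglobulin genes on chromosomes 2, 14 and 22, as did 1 of the 55 higher. Without the members at these 3 loci, 54 were higher and 66 lower of 721, or 7.49% and 9.15%, and the median difference was 0.02. With readings under the bound set at the bound, 47 of the 764 were still at least 2-fold higher and 87 lower. Outside the immunoglobulin loci these were 46 and 56 of the 721. On that basis 1 member passed 4-fold in the higher direction and 20 in the lower, 4 of the 20 outside these loci. The share over all probe sets was not computed on that basis, so these counts have no background beside them. The immunoglobulin, T-cell receptor, NBPF10 and mitochondrial classes were drawn after the values were seen. By chromosome, 17 lower of 50 passing members on chromosome 2 became 2 of 35 outside these loci. On chromosome 22, 16 of 42 became 5 of 22, and on chromosome 14, 5 of 26 became 0 of 18. The median difference of passing members on chromosome 22 moved from -0.54 to 0.02. Chromosome 22 also had the highest share of probe sets without a gene ID among the numbered and X and Y chromosomes, 100 members or 8.58%, and chromosome X the lowest, 2.16%. Chromosome 17, with 61 of 134 members passing, had 7 higher and 6 lower (11.5% and 9.84%). Chromosome 8, with 26 of 76 passing, had 5 of each (19.2%). The shares over all probe sets were 6.67% and 5.16%, and these chromosomes had few passing members.

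**Figure D2:**
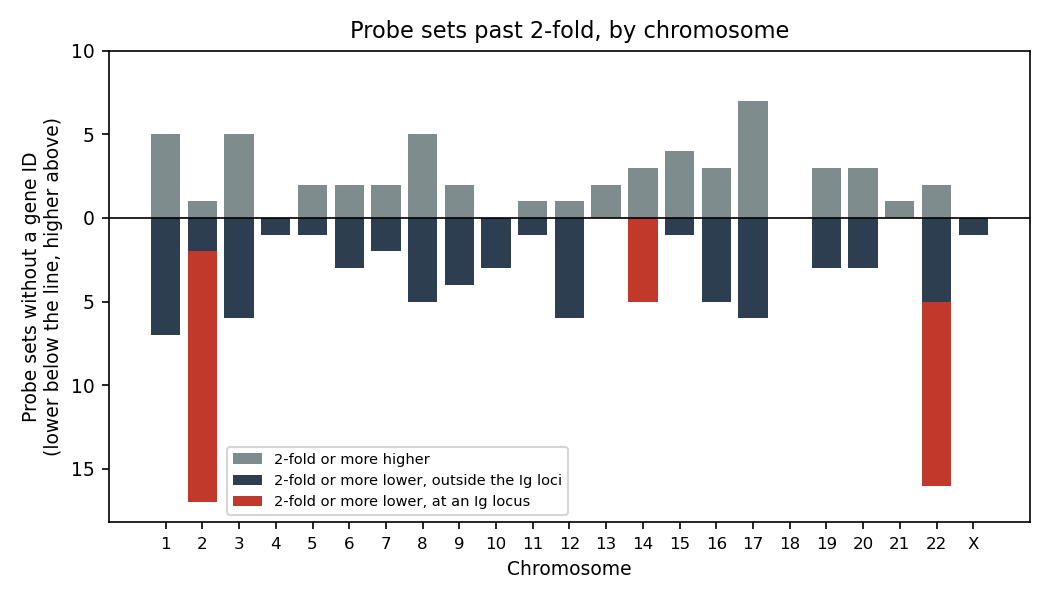
Number of probe sets without a gene ID at 2-fold or more on each chromosome, higher with LYAR-shRNA above the line and lower below it. Red marks members at an immunoglobulin locus, which make up 15 of the 17 lower members on chromosome 2, 11 of 16 on chromosome 22 and 5 of 5 on chromosome 14. Members on chromosome Y, the mitochondrial genome and unplaced or alternative sequences are not drawn.

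At the kappa locus on chromosome 2, which encodes a light chain of antibodies, all 15 members were lower with LYAR-shRNA. Their intensities ranged from 43.8 to 149 (median 104) on the LYAR-shRNA array and from 695 to 1477 (median 1023) on the Scramble-shRNA array, so the ranges did not overlap. The median difference was -3.66, a 12.6-fold lower intensity, and -3.55 with readings under the bound set at the bound. The 11 measured on both arrays had a median of -3.32, a range of -3.80 to -2.75 and an SD of 0.40 across probe sets. BC029444, an MGC clone, read 117 and 1477 (-3.66). BC062704 read 104 and 1454 (-3.80). BC032451 read 117 and 1393 (-3.57). Among the 10 largest lower differences of members measured on both arrays, all 10 were kappa members, and the smallest of these was Y14736 at 149 and 1023 (-2.78). In 4 kappa members the LYAR-shRNA array was under its bound, so only a lower limit can be given: BC005332, at 45.6 and 937, was at least 15.4-fold lower, AJ010442 at least 14.1-fold, BC022362 at least 11.7-fold and BC110292 at least 11.5-fold. The other kappa members BC073793, BC016380, BC092455, BC030813, AY172961, BC034146 and BC073775 lay between -3.79 and -2.75.

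The 15 kappa spans start within positions 88937788 to 88937988 of chromosome 2 (hg18) and run for 90641 to 463204 bases. They share 1 end and the same overlapping gene list, IGKC, IGKV1-5 and LOC651928, and are not independent. Members with longer spans tended to have smaller differences (Spearman 0.518 between span and signed difference, n = 15 probe sets of the same 2 arrays). The 4 members with only a limit entered this at their measured values, which are the 4 largest differences, so their ranks are uncertain. Probe sets whose gene symbol is of the kappa locus read the same arrays: 21 of 22 passed the filter, these 21 were lower, and the median difference was -3.74 over the 22. Of all probe sets on the array that passed, 5.16% were lower.

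The heavy chain locus on chromosome 14 held 12 members, of which 8 passed and 5 were lower, with a median difference of -1.21, or -0.94 over the 10 measured on at least 1 array with readings under the bound set at the bound. The 3 whose spans start at 105124270 to 105124274 were all lower, among them BC073765, titled as the constant segment of IgA2, at 26.0 and 158 (at least 2.61-fold lower). BC066594 at 43.7 and 175 was at least 2.89-fold lower and BC065733 at 49.8 and 124 at least 2.04-fold lower. The 4 that start at 105278720 to 105278721 had a median of -0.98, with BC065820 (92.3 and 239, -1.38) and BC073782 (80.5 and 174, -1.11) past 2-fold. The brightest heavy chain member, BC080549, was at 481 with LYAR-shRNA and differed by -0.14, and BC062335 was at 132 and 108 (0.28). The difference was below 0 in 11 of the 12 heavy chain members, with BC062335 the exception, and in all 15 kappa members. Of the 47 probe sets with a heavy chain symbol, 29 passed, 23 of these were lower and none higher, and the median over the 47 was -1.18. The array as a whole had 5.16% lower and 6.67% higher among probe sets that passed.

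The lambda locus on chromosome 22, the other light chain locus, held 27 members. Of these 20 passed, 11 were lower and 1 was higher, and the median difference was -0.68 with a range of -2.48 to 1.40. It was -0.90 over the 23 measured on at least 1 array with readings under the bound set at the bound. Apart from AK026408, the spans fall into 3 groups by the position of their end. The 8 ending at 21578874 to 21578970 had a median of -1.43 with 6 lower, the 11 ending at 21573475 to 21573614 had -0.55 with 3 lower, and the 7 ending at 21568007 to 21568283 had -0.68 with 2 lower. Members with the same end differed widely: BC020233 was at 69.5 and 389 (-2.48), whereas BC073794, the brightest lambda member, was at 1495 and 2289 (-0.61) and X57802 at 367 and 367 (-0.00). AK026408, whose span ends at 21005675 and overlaps a probe set named IGLC2 whose difference was -1.51, was at 188 and 70.8 (1.40). It was the only member assigned to the immunoglobulin loci that was past 2-fold higher. Its title is that of an FLJ clone, and only the overlap with that 1 probe set places it at this locus. Of 22 probe sets with a lambda symbol, 18 passed, 11 were lower and 1 higher, with a median of -1.11. Among all probe sets that passed, 5.16% were lower and 6.67% higher.

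The 3 loci together held 54 members, of which 51 had differences below 0, and 31 of the 43 that passed were lower. That is 72.1%, against 5.16% of all probe sets that passed. Only 13 of the 54 are titled with immunoglobulin words, and the other 41 are titled as cDNA clones. Immunoglobulin RNA is made by B cells and plasma cells, and markers of blood cells were set beside it. The 7 blood and lymphoid markers reported here had probe sets, and a marker's level is the geometric mean of its probe sets. Of the 7, 2 had a probe set above the bound with LYAR-shRNA and 5 with Scramble-shRNA. The summed levels were 315 and 1421, and 3 (CD79A, HBB and HBA1) were at least 2-fold lower with readings under the bound set at the bound. The median difference, -1.82, is that of CD3E, whose LYAR-shRNA reading was under the bound. CD79A, part of the B-cell receptor, was at 35.5 and 339. HBB, the beta chain of haemoglobin, was at 45.4 and 361, HBA1 at 89.4 and 496, and CD3E, part of the T-cell receptor complex, at 30.1 and 106. MS4A1 was at 22.5 and 26.6, and LYZ at 35.5 and 29.4, both under the bounds. PTPRC averaged 56.8 and 63.0 over 4 probe sets, of which at least 1 was above the bound on each array. The part of these markers in the immunoglobulin result was not tested. The labels describe a cell line whose infected cells were collected by a GFP sort, and name no blood cells. In a bulk sample, fewer cells of a type and less RNA per cell cannot be told apart. Of 6 fibroblast markers, 3 and 2 had a probe set above the bound, and of 3 endothelial markers 0 and 1.

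Members at the T-cell receptor loci numbered 4 and were mostly not measured. Of these, BC073778, BC039725 and BC110303 were under the bound on both arrays. AK128384, an FLJ clone inside the beta chain locus on chromosome 7, was at 247 and 81.7 (1.60), and 5 of the 6 overlapping probe sets with a gene ID were under the bound on at least 1 array. The sixth, BC028083 of TRBV5-4, was at 92.0 and 302 (-1.72).

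**Figure D3:**
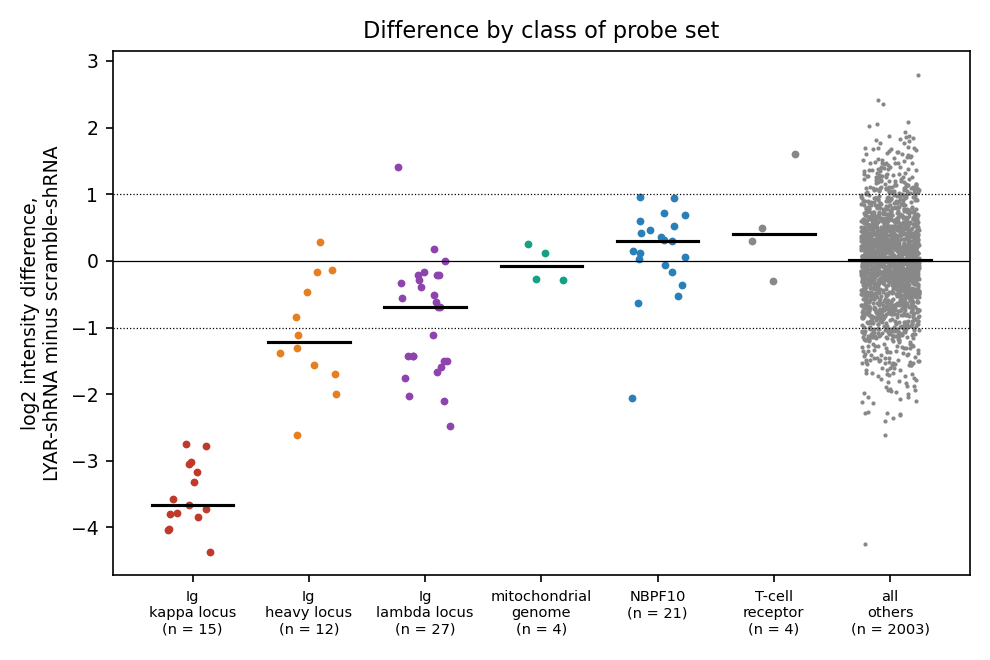
Log2 difference (LYAR-shRNA minus Scramble-shRNA) of each probe set without a gene ID, by class, with the median as a bar and dotted lines at 2-fold. The kappa members lie at -4.36 to -2.75, the heavy chain members at -2.61 to 0.28, and the lambda members at -2.48 to 1.40. Members under the bound are drawn at their measured value.

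NBPF10, of the neuroblastoma breakpoint family, gave 21 members, all predicted transcript variants on chromosome 1 between 146616874 and 146722855 (hg18). Genes of this family are close copies of each other, so these probe sets may read several genes. The 21 spans form 1 locus and are not separate observations. The median difference was 0.29 over the 21 and 0.36 over the 13 measured on both arrays. The spans overlap a probe set named NBPF8, whose difference was 0.02. Of the 10 that passed the filter, 0 were past 2-fold higher and 1 was lower, XM_930961 at 34.8 and 145 (at least 2.38-fold lower). The brightest was XM_930808 at 2285 and 2102 (0.12), followed by XM_930776 at 1238 and 1012 (0.29). There were 8 pairs of members with the same annotated span among the 2086, and in 5 of these, 4 of them NBPF10, both probe sets were measured on both arrays. Of the 5, 4 had the same sign, and the gaps in log2 difference ranged from 0.03 to 0.89 with a median of 0.67. XM_930808 and XM_930936 differed by 0.83, and the 2 patent sequences AX775875 and AX775877 inside TMCO4 were at 0.64 and 0.61. For probe sets of the same gene ID, measured or not, the pooled SD of the difference about the gene mean was 0.59. It is another measure than a gap between 2 probe sets.

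Large differences were most frequent among dim members, which the filter itself favours, since a member with a low mean level passes only through its brighter array. The 764 passing members were split into equal groups by mean level, at 172.5 and 559.1. In the dimmest group, 35 were higher and 65 lower of 255 (13.7% and 25.5%). In the middle group, 16 were higher and 28 lower of 254. In the brightest group, 4 were higher and 4 lower of 255 (1.57% each). Outside the immunoglobulin loci the dimmest group had 34 higher and 52 lower of 239 (14.2% and 21.8%) and the middle group 16 and 10 of 228 (7.02% and 4.39%). Probe sets with a gene ID, under the same filter and in the same level ranges, had 20.1% higher and 16.3% lower in the dimmest, 7.12% and 4.29% in the middle, and 1.58% and 1.19% in the brightest range. Outside the immunoglobulin loci, the members' shares therefore lay near those of probe sets with a gene ID in the middle and brightest ranges. In the dimmest range the lower calls outnumbered the higher calls among members, and the reverse was so among probe sets with a gene ID. This contrast has no test with 1 array per group. Of all 97 lower members, 42 were under the bound on the LYAR-shRNA array, and of the 55 higher, 17 were under it on the Scramble-shRNA array.

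The 8 members past 2-fold in the brightest group all lay outside the immunoglobulin loci, and were named after their values were seen. They stand apart by level only, and with 1 array per group their differences have no measured error. AF132203, a clone whose 694 bases lie inside SCD on chromosome 10 (102113874 to 102114567, hg18), was at 2843 with LYAR-shRNA and 6720 with Scramble-shRNA (-1.24). The SCD probe set was at 914 and 2549 (-1.48), so both read a lower level with LYAR-shRNA. AK123968, which overlaps the RNA helicase gene DHX37, was at 472 and 1079 (-1.19), and the DHX37 probe set was at 371 and 662 (-0.83). AK126176 lies inside CORO7 and was at 413 and 910 (-1.14), whereas the CORO7 probe set was at 3125 and 3445 (-0.14). CR601567, inside THAP3, was at 597 and 1209 (-1.02), and the 2 THAP3 probe sets were at -0.85 and 0.36. Among the higher, BC039151, inside C20orf119, was at 979 and 343 (1.52) with the C20orf119 probe set at 1.00. AF032906 is titled cathepsin Z, a lysosomal protease, and was at 2094 and 997 (1.07), with the 2 CTSZ probe sets at 0.62 and 0.28. AF318337 and AK127569 overlap each other on chromosome 13 with no overlapping gene ID, and were at 4038 and 1928 (1.07) and at 4073 and 2022 (1.01). These 2 are 1 locus, not separate observations.

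Further members higher with LYAR-shRNA and measured on both arrays were dimmer. BC064537, an IMAGE clone over MEF2B, was at 234 and 65.4 (1.84), and its Scramble-shRNA intensity lay at the bound itself. The 3 MEF2B probe sets were at 1.62, -0.47 and -0.68. AK130707, on chromosome 2 with no overlapping gene ID, was at 279 and 85.6 (1.70). AK123948 lies inside TMPRSS2, a membrane serine protease gene, and was at 270 and 85.4 (1.66), with the TMPRSS2 probe set at 504 and 243 (1.05). AB095936, titled KIAA2016, was at 420 and 134 (1.65) over TIAM2, TFB1M and RBM16, whose 5 probe sets measured on both arrays ranged from -0.22 to 1.12. AF146698, titled as the transcription factor FOXP1, was at 406 and 136 (1.58), and the 2 FOXP1 probe sets above the bounds were at 1.20 and 0.47. AK092888, inside the kinesin light chain gene listed as KNS2, was at 199 and 72.8 (1.45), with 4 KNS2 probe sets between -0.10 and 1.01. The gene's own probe sets thus spread over a range where there were several.

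Where the Scramble-shRNA array was under its bound, only limits apply. AK055252, on chromosome 15 with no overlapping gene ID, was at 279 and 40.3, at least 4.27-fold higher. AK128528, inside the Wnt antagonist gene NKD1, was at 192 and 47.2, at least 2.93-fold higher, and the NKD1 probe set was at 771 and 158 (2.29). AK026675, inside PEMT, a phosphatidylcholine synthesis enzyme gene, was at 191 and 55.1, at least 2.92-fold higher, whereas the 3 PEMT probe sets lay between -0.28 and 0.13. BC080624 was at least 2.50-fold and AK075438 at least 2.49-fold higher. In the other direction, the one member outside the immunoglobulin loci among the 5 largest limits was BC109047, titled as a spermatid-specific linker histone, at 28.8 and 548, at least 9.03-fold lower. The probe set with the gene ID of that histone, HILS1, was at 51.0 and 55.7, under the bound on both arrays, and SGCA, whose span also holds BC109047, was at 29.5 and 87.9.

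The annotated span of a member was short, with a median of 3534 bases (177 to 1206395) against 18313 for probe sets with a gene ID. Spans over 100000 bases were held by 156 members, of which 76 passed, 3 were higher and 30 lower (3.95% and 39.5%). Outside the immunoglobulin loci the long spans numbered 109, with 39 passing, 3 higher and 1 lower (7.69% and 2.56%). At up to 1000 bases there were 110 members, 50 passing, 2 higher and 4 lower. At 2000 to 5000 bases there were 820 members, 287 passing, 30 higher and 31 lower (10.5% and 10.8%). Outside the immunoglobulin loci, spans of 1000 to 2000 bases had 8 higher and 13 lower of 116 passing (6.90% and 11.2%). Those of 5000 to 20000 bases had 8 and 8 of 122 (6.56% each). Those of 20000 to 100000 bases had 3 and 9 of 107 (2.80% and 8.41%). The shares over all probe sets that passed were 6.67% and 5.16%.

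Most members lay over a named gene. A span overlap of at least 1 base with a probe set that has a gene ID was found for 1645 of 2086 (78.9%), and 1096 (52.5%) lay wholly inside such a span. The other 441 (21.1%) overlapped none. Of those without overlap, 132 passed the filter, with 17 higher and 16 lower (12.9% and 12.1%). Of those with overlap and outside the immunoglobulin loci, 589 passed, with 37 higher and 50 lower (6.28% and 8.49%). The shares over all probe sets were 6.67% and 5.16%. Members without overlap were dimmer, with medians of 45.3 and 48.7 against 59.5 and 60.2, and the 2 groups were not matched for level. Both arrays were above the bound for 12 of the 17 and 7 of the 16, and for 25 of the 37 and 27 of the 50. The files give no strand, so sense and antisense overlap cannot be told apart.

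Members and the genes they overlap differed in the same direction more often than not, but less closely than probe sets of a shared gene ID did on these arrays. In 438 cases the member and every overlapping probe set with a gene ID were above the bounds on both arrays. In 270 of these (61.6%) the member's difference and the mean difference of the overlapping probe sets had the same sign, with a Spearman correlation of 0.256 across members and a median absolute gap of 0.34. Outside the immunoglobulin loci, which leaves out 1 member, the same-sign share was 58.5% for 289 members inside a span and 68.2% for 148 that overlapped one partly. For 16858 probe sets with a gene ID, set against the other probe sets of their own gene, the share was 71.4%, the Spearman correlation 0.535 and the median gap 0.25. The 2 sets were not matched for level, and members were dimmer as a whole. Their partners were also chosen differently. A member counted only if every overlapping probe set was above the bounds, and these could belong to more than 1 gene. Among probe sets of a shared gene ID, those under a bound were left out and the rest were kept. Among passing probe sets with a gene ID, the SD of the difference was 1.11 in the dimmest range and 0.44 in the brightest. The part of level and of the choice of partners in the closer match was not tested. All these values share the same 2 arrays and are descriptions. Gaps over 1 on the log2 scale were found for 49 of the 438.

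**Figure D4:**
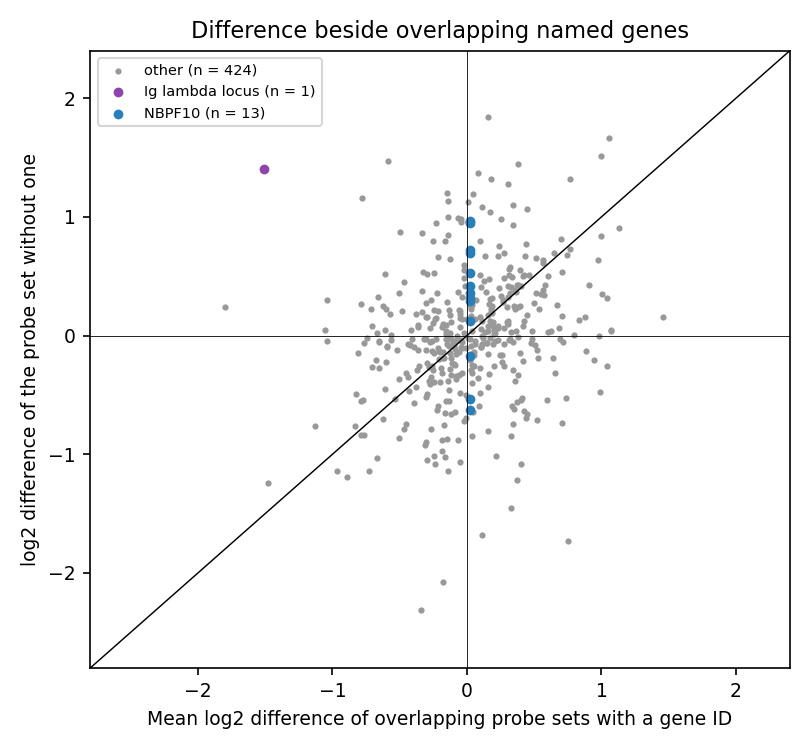
Log2 difference of each of 438 probe sets without a gene ID (vertical) against the mean log2 difference of the probe sets with a gene ID that its span overlaps (horizontal), all above the bounds on both arrays. The line is equality. Points scatter widely about it, with the same sign in 61.6% and a Spearman correlation of 0.256.

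The members farthest below their overlapping genes were at 60.9 to 140 on the LYAR-shRNA array, where the bound was 60.7. AY358194, inside TBC1D22A, was at 60.9 and 202 (-1.73), whereas the TBC1D22A probe set was at 0.75. BC033173, which overlaps the neuropeptide B gene NPB, was at 140 and 697 (-2.32), and NPB was at 111 and 141 (-0.34). AK097908, inside the septin gene SEPT9, was at 89.4 and 377 (-2.07), and the 3 SEPT9 probe sets, at 4940 or more on both arrays, lay between -0.33 and -0.10. AK094577 over PPP1R16A was at 77.4 and 248 (-1.68), with PPP1R16A at 0.11. BC114505, titled as an enzyme that starts mucin-type O-glycans, lies inside GALNT6 and was at 113 and 310 (-1.46), and the 2 GALNT6 probe sets were at 0.59 and 0.65.

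Among the 5 farthest above their overlapping genes, AK126579 had the highest intensity on each array. It lies inside UBXD1 and was at 794 and 287 (1.47), whereas the 2 UBXD1 probe sets were at 733 and 1104 (-0.59) and at 1687 and 2520 (-0.58). AK125720, inside PTDSS2, a phosphatidylserine synthase gene, was at 222 and 99.6 (1.16), and PTDSS2 was at 426 and 734 (-0.78). AK128039, inside C19orf15, was at 156 and 132 (0.24) with C19orf15 at 73.8 and 257 (-1.80). AK026408, assigned to the lambda locus by overlap, and BC064537 over MEF2B complete the 5.

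NM_001039694, the PPARD record on chromosome 6, was at 172 with LYAR-shRNA and 525 with Scramble-shRNA (-1.61). It was named after its value was seen. The overlapping PPARD probe set was at 49.8 and 39.1, under the bound on both arrays, so its difference of 0.35 gives no level to set against the record. AF218021, on chromosome 17 with no overlapping gene ID, was at 106 and 307 (-1.54), and AK021933, on an unplaced sequence, was at 60.7 and 292 (-2.26), the first value lying at the bound. Both were named after their values were seen.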

How the data were processed

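Total RNA of 1 LYAR-shRNA and 1 Scramble-shRNA sample was read on single-colour Cy3 NimbleGen arrays, per the labels' protocols. The authors deposited linear intensities, which RMA had summarised from the probes, per the submitters' processing notes. The sources used here do not give the RMA settings or the arrays it was run on; if both arrays were brought to 1 distribution, a shift of most probe sets would not show. Positions are in hg18, per the file headers. A deposited score per probe set, headed as a standard error, was not used. The series table, also deposited as intensities by the authors, served as an alternative.

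Differences are log2 of the deposited intensity, with no pseudocount and no further normalization. The filter and the bound at 2 times the random probes are given with the results. Python 3.11.15, pandas 2.3.3, NumPy 2.4.6, SciPy 1.17.1 and statsmodels 0.14.6 were used, and counting and overlap steps were tested on simulated data. Named members were, in each direction, the 10 largest differences with both arrays above the bound, the 5 largest limits and the 5 farthest from their overlapping genes, and the 8 brightest; others are marked. The members and lists were chosen with earlier results of these data known. The number of arrays limits the precision, and no p-value was computed. One listed blood marker is not reported here.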

Additional observations from a re-analysis of the deposited data

How the results depend on the processing

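The count of members 2-fold or more higher was 55. It was 120 at 1.5-fold, 143 with no filter on level, 32 with a pseudocount of 32 and 31 in the series table, which holds fewer probe sets. The members tested under these 4 settings numbered 764, 2086, 762 and 637. The shares higher over all probe sets tested were 16.4%, 6.85%, 4.48% and 4.53%. The count lower was 97. It was 155 at 1.5-fold, 55 with both arrays above the bound (815 members tested), 214 with no filter and 46 in the series table. The shares lower over all probe sets tested were 12.9%, 2.99%, 6.26% and 3.01%. Centring, a lowess trend and quantile normalization gave 45 to 51 higher and 99 to 106 lower. Over all probe sets these 3 settings gave 5.62 to 6.25% higher and 5.50 to 5.99% lower. Leaving out the immunoglobulin loci, an alternative added after the data were seen, gave 54 and 66. Setting readings under the bound at the bound, also added later, gave 47 and 87, with no share computed over all probe sets. The median difference of members ranged from -0.06 to 0.02, the kappa median from -3.74 to -3.25 and the same-sign share with overlapping genes from 60.5 to 62.6%. Of 212 values of 45 named members under 5 settings, none changed sign and 6 moved by more than 0.59, all with the pseudocount. Overlap on the same strand was not run because no strand is given. No paired analysis was possible because each group has 1 array. With 945 of 2086 members under the bound on both arrays, low signal over background limits most of them.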

Other observations

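The deposited series table held 649 of the 2086 probe sets without a gene ID (31.1%) and 21990 of those with one (51.2%). It held 637 of the 764 members that passed the level filter, 35 of the 54 at the immunoglobulin loci and 13 of the 15 kappa members. Its intensities equalled those of the per-array files to within 0.0403.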
